A study of Mus musculus with 8 samples.

Results

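The transcripts of 40 genes of the cell cycle and mitosis were followed in the hippocampus of mouse embryos after intrauterine growth restriction (IUGR). The genes were taken by name from the deposited count table, which lists 16397 genes, and all 40 were present. They were divided by name into 15 S phase genes (the Mcm, Pcna, Gins, Cdc6, Cdt1, Rrm and Ccne genes) and 25 G2/M genes (the rest). Cdc45, a subunit of the replicative helicase that works in S phase, falls into the G2/M group by this rule. The samples were 8 hippocampi of wild type C57Bl/6J embryos at embryonic day (E) 15.5, 4 from IUGR and 4 from sham pregnancies. In the IUGR group the dam carried a micro-osmotic pump with U-46619, a thromboxane A2 analog that raises maternal blood pressure, from E12.5. In the sham group the pump carried the vehicle from the same day. The fetuses of both groups therefore shared surgery and pump, and IUGR was imposed through the dam and not by an allele of the embryo. The labels do not state the sex of each sample or whether samples shared a litter. Each p value here sets a difference between the groups against the spread of these 8 samples, and cannot account for shared litters.

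A dividing cell copies its DNA in S phase and parts the copies in mitosis, after a gap phase called G2. At origins of replication, Cdc6 and Cdt1 load the Mcm2-7 helicase, which Cdc45 and the GINS complex turn into an active machine, while cyclin E with its kinase drives entry into S phase. Entry into mitosis needs Cdk1 with cyclins A and B, and its exit needs the anaphase-promoting complex, which Cdc20 activates. S phase genes are classically transcribed through E2F factors, and G2/M genes through the DREAM and MuvB complexes with B-Myb and FoxM1. In the embryonic hippocampus most of these transcripts come from radial glia and intermediate progenitors near the ventricle, whereas young neurons have left the cycle. In whole tissue, fewer dividing cells and less of a transcript per cell cannot be told apart.

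Total counts on genes were 12919546 to 16672463 in the IUGR libraries and 11212632 to 15405748 in the sham libraries. Levels are given as CPM, counts per 1000000 counts after TMM normalization. All 40 genes passed the count limits (a mean over samples from 10 to below 50000), with mean counts from 254 for Ccne1 to 22440 for Top2a. Markers of hippocampal progenitors and neurons were detected in every library, and none of the 15 radial glia, 9 intermediate progenitor or 14 neuron markers was at 0 in any sample. The IUGR libraries differed from each other in markers of neighbouring tissues. The 12 meningeal fibroblast markers summed to 3769 CPM in T1-3, against 546 to 1274 CPM in the other IUGR libraries and 562 to 885 CPM in the sham libraries. A sum leans on the abundant markers. As mean log2 CPM over the 12, T1-3 was highest at 6.96 and T1-4 lowest at 2.47. T1-1 and T1-5 were at 4.09 and 5.20, and the sham libraries at 3.68 to 4.89. The 17 choroid plexus markers summed to 199 CPM in T1-4 and 255 CPM in T1-1, 1113 CPM in T1-5 and 1625 CPM in T1-3, against 6055 to 12908 CPM in the sham libraries.

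None of the 40 genes was called different between IUGR and sham hippocampi. A call needed an adjusted p no higher than 0.05 and a log2 fold change of 1 or more, up or down, in edgeR's quasi-likelihood test. The adjustment ran over 13707 protein-coding genes, of which 200 (1.46%) were called. With the adjusted p alone, 0 of 40 passed, against 213 (1.55%) of all tested genes. At an unadjusted p under 0.05 also 0 of 40 passed, in either direction, whereas 6.62% of all tested genes were lower in IUGR and 4.46% higher at that level. DESeq2's Wald test and limma-voom likewise called 0 of the 40, and at an unadjusted p under 0.05 each gave 0. For no gene did the 4 IUGR values lie entirely below or above the 4 sham values, whereas 5.06% of all tested genes lay entirely below and 2.08% entirely above.

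The estimates were small. Log2 fold changes, IUGR against sham, ran from -0.25 for Cdk1 to 0.11 for Rrm2. All 40 of the 95% intervals included 0 and all 40 stayed within a 2-fold change in either direction. The widest was that of Foxm1, from -0.92 to 0.52. In sign, 35 of the 40 estimates were below 0, 11 of 15 in S phase and 24 of 25 in G2/M, beside 55.5% of all tested genes. The median log2 fold change was −0.07 for the S phase genes and −0.11 for the G2/M genes, beside −0.02 for all tested genes. These signs turned with a single library, as given below, and no difference between the groups can be read from them.

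**Figure D1:**
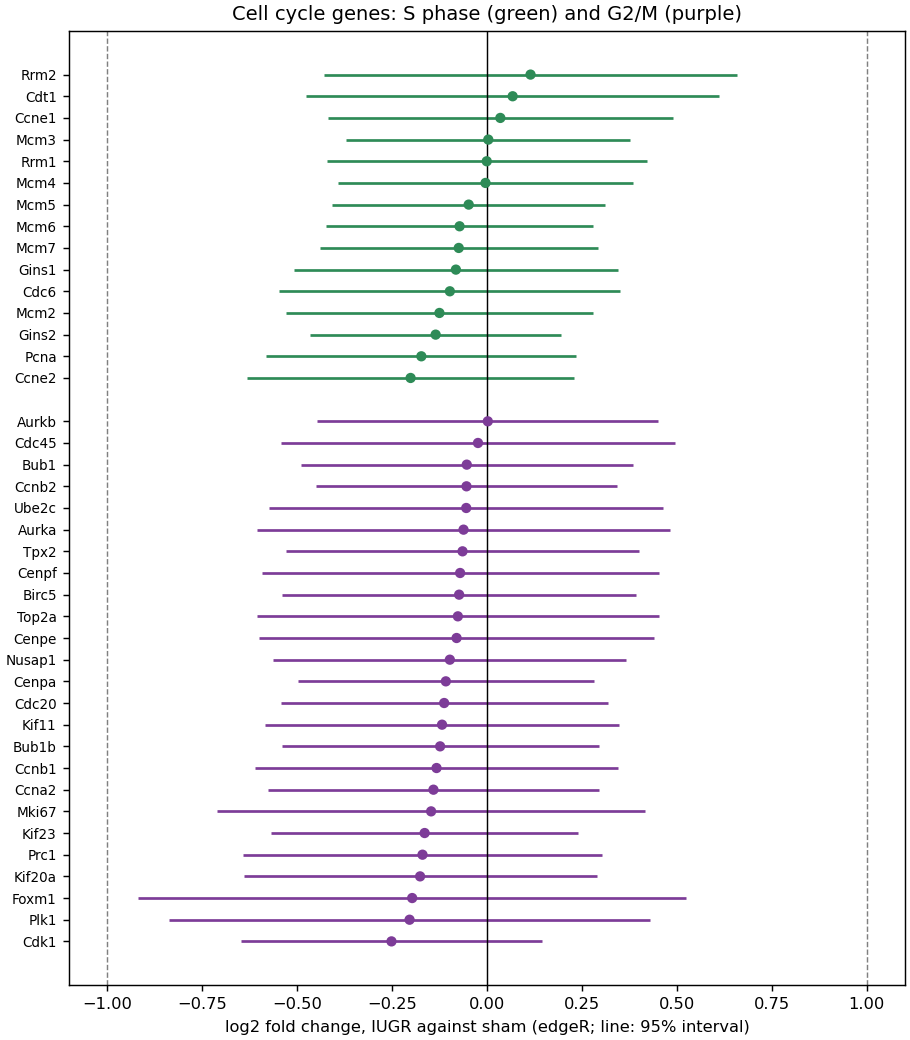
Log2 fold change (horizontal axis, IUGR against sham) of each of the 40 genes, with S phase genes in green above and G2/M genes in purple below. Points are edgeR estimates over all 8 samples and lines their 95% intervals, the dashed lines mark a 2-fold change, and every line crosses 0.

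Among the S phase genes, the 6 subunits of the Mcm2-7 helicase had log2 fold changes between -0.13 (Mcm2) and 0.00 (Mcm3). Mcm2 (chr6:88883474-88898780, GENCODE M21 on GRCm38, as for all genes) was at 228, 152, 265 and 168 CPM in T1-1, T1-3, T1-4 and T1-5, and at 244, 242, 189.8 and 212 CPM in S1-4, S1-6, S3-1 and S3-4. The same order of samples is kept for every gene. T1-3 and T1-5 lay below all sham samples and T1-4 above them, so that the IUGR values enclosed the sham values (log2 fold change -0.13, SE 0.18, 95% interval -0.53 to 0.28, adjusted p = 0.9995 by edgeR). Mcm6 showed the same arrangement at 321, 192, 297 and 244 CPM in IUGR, against 295, 277, 267 and 269.5 CPM in sham, with T1-1 highest and T1-3 lowest. Mcm5 and Mcm7 had log2 fold changes of -0.05 and -0.07 (SE 0.16 and 0.16). Mcm4 differed, since its lowest sample was the sham sample S3-1, at 113 CPM, with T1-5 next at 124 CPM.

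Cdc6 and Cdt1, the loaders of the helicase, were among the low genes of the group. Cdt1 was at 52.8, 26.8, 37.8 and 27.1 CPM in IUGR, against 34.1, 43.6, 24.8 and 35.3 CPM in sham samples. T1-1 was highest and S3-1 lowest, and the values overlapped throughout (log2 fold change 0.07, SE 0.25, 95% interval -0.48 to 0.61). Cdc6 was at 34.8 ± 9.15 CPM in IUGR, against 37.2 ± 5.06 CPM in sham (SD, n = 4 each), a difference smaller than either SD. The GINS subunits Gins1 and Gins2 had log2 fold changes of -0.08 and -0.14 (SE 0.19 and 0.15).

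Pcna, the sliding clamp that holds the DNA polymerases, was at 158, 137, 248 and 219 CPM in IUGR, against 202, 218, 239 and 199.6 CPM in sham. Here T1-1 joined T1-3 below all sham samples, and T1-4 was again the highest. Rrm1 and Rrm2 encode the subunits of ribonucleotide reductase, which makes the building blocks of DNA. Rrm2 was at 283, 144, 305 and 201 CPM in IUGR, against 237, 251, 146 and 227 CPM in sham, and its estimate was the highest of the 40 (log2 fold change 0.11, SE 0.25, 95% interval -0.43 to 0.66). The lowest values were those of T1-3 and S3-1, which belong to different groups and were nearly equal. The cyclin E genes differed in their order of samples, since T1-5 was the lowest of the 8 for Ccne1 and the highest for Ccne2. Ccne1 was at 19.9 ± 4.49 CPM in IUGR, against 19.4 ± 3.40 CPM in sham, and Ccne2, with the lowest estimate of the S phase genes (log2 fold change -0.20, SE 0.19, 95% interval -0.63 to 0.23), was at 58.6, 64.7, 96.7 and 107 CPM in IUGR, against 90.04, 103, 96.2 and 86.5 CPM in sham. T1-1 and T1-3 were below all sham samples for Ccne2.

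Among the G2/M genes, Cdk1 (chr10:69335146-69352938), the kinase that starts mitosis, had the smallest p value of the 40. It was at 172, 131, 237 and 223 CPM in IUGR, against 226, 238, 238 and 207 CPM in sham samples. T1-1 and T1-3 lay below all sham samples, while T1-4 and T1-5 lay within the sham range. Its log2 fold change was -0.25 (SE 0.18, 95% interval -0.65 to 0.14, adjusted p = 0.824 by edgeR). An exact two-sided permutation test of the 4 against 4 log2 CPM values gave p = 0.200, and the smallest p this design allows is 0.0286. Its partners Ccna2, Ccnb1 and Ccnb2 had log2 fold changes of -0.14, -0.13 and -0.05 (SE 0.20, 0.22 and 0.18). Ccna2 was at 369, 249, 529 and 389.6 CPM in IUGR, against 426, 391, 431 and 447 CPM in sham. For this gene 3 of the 4 IUGR samples were below all sham samples, and T1-4 was above all of them.

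Mki67 (chr7:135689784-135716361), whose protein Ki-67 coats mitotic chromosomes and is the usual marker of dividing cells, was at 1029, 539, 1249 and 766 CPM in IUGR, against 1052, 1199, 694 and 1023 CPM in sham. The IUGR samples spanned a wider range than the sham samples, and S3-1 stood below the other 3 sham samples. Mki67 was at 896 ± 309 CPM in IUGR, against 992 ± 213 CPM in sham (log2 fold change -0.15, SE 0.25, 95% interval -0.71 to 0.42, adjusted p = 0.9995 by edgeR). Top2a (chr11:98992943-99024189), the topoisomerase that untangles sister chromatids, was at 1751, 939, 2426 and 1749.9 CPM in IUGR, against 1931, 1599, 1834 and 1876 CPM in sham. The SD of its log2 CPM was 0.57 in IUGR and 0.12 in sham, the widest of the 40 genes in IUGR. Its log2 fold change was -0.08 (SE 0.24).

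Foxm1 (chr6:128362967-128376146), a transcription factor of G2/M genes, and Plk1, a kinase of mitotic entry and spindle assembly, had S3-1 and not T1-3 as their lowest sample. Foxm1 was at 73.4, 49.3, 91.8 and 46.4 CPM in IUGR, against 67.9, 115, 36.9 and 78.6 CPM in sham samples, and Plk1 at 49.8, 31.6, 56.04 and 27.8 CPM in IUGR, against 45.9, 62.2, 27.4 and 54.8 CPM in sham. For both, the sham samples were the more variable, with S1-6 the highest of all 8. Their log2 fold changes were -0.20 and -0.20 (SE 0.33 and 0.29). Aurka, which acts at the spindle poles, had a log2 fold change of -0.06 (SE 0.25). The chromosomal passenger proteins Aurkb and Birc5 had 0.00 and -0.07 (SE 0.20 and 0.21).

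The genes of the spindle checkpoint and of its release gave the same picture. Bub1 and Bub1b, which hold back anaphase until chromosomes are attached, had log2 fold changes of -0.05 and -0.12 (SE 0.20 and 0.19). Cdc20 and Ube2c, which serve the anaphase-promoting complex as activator and ubiquitin-conjugating enzyme, had -0.11 and -0.05 (SE 0.19 and 0.23). Cdc20 was at 156, 81.6, 135 and 101 CPM in IUGR, against 145, 133, 112 and 121 CPM in sham, with T1-3 and T1-5 below and T1-1 above all sham samples. At the centromere and kinetochore, the histone Cenpa had -0.11, the motor Cenpe -0.08 and Cenpf -0.07 (SE 0.18, 0.23 and 0.24). The spindle motors and spindle proteins Kif11, Kif20a, Kif23, Tpx2, Nusap1 and Prc1 ran from -0.18 (Kif20a) to -0.06 (Tpx2). Prc1, which bundles the microtubules of the central spindle, was at 292, 152, 337 and 255 CPM in IUGR, against 326, 255, 292 and 291 CPM in sham. T1-3 was far below all other samples and T1-4 only just above the highest sham sample. Cdc45 had -0.02 (SE 0.23).

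The groups differed in the spread of these values, which is given as a description. The median SD of log2 CPM over the 40 genes was 0.44 among IUGR samples and 0.16 among sham samples, while over all tested genes it was 0.26 in both. The SD was larger in IUGR for 37 of the 40 genes and for 52.6% of all tested genes. A wider IUGR spread was not particular to the 40 genes. It was found in 39 of 40 further S phase genes (median SD 0.38 against 0.16), 58 of 60 further G2/M genes (0.45 against 0.17), all 15 choroid plexus markers (2.02 against 0.33), all 12 meningeal markers (2.11 against 0.49) and all 9 erythroid markers (0.81 against 0.35). Among the 40 genes, in S phase the medians were 0.37 against 0.14, and in G2/M 0.47 against 0.16. The width narrowed most without T1-3, when the IUGR median over the 40 genes was 0.27, beside 0.41 to 0.50 with any other IUGR sample left out. Without any single sham sample the sham median was 0.12 to 0.19.

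T1-3 was the lowest of the 8 samples for 34 of the 40 genes, 11 in S phase and 23 in G2/M, and lay below all sham samples for 35. As a median over genes it stood at 68.7% of the sham mean in S phase and at 59.2% in G2/M, with the lowest value, 51.9%, for Top2a. T1-4 was the highest sample for 22 genes and lay above all sham samples for 26, with medians of 114% in S phase and 120.4% in G2/M. T1-1 was highest for 8 genes, 5 of them S phase genes, and above all sham samples for 12. T1-5 lay below all sham samples for 13 genes and above them for 2.

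**Figure D2:**
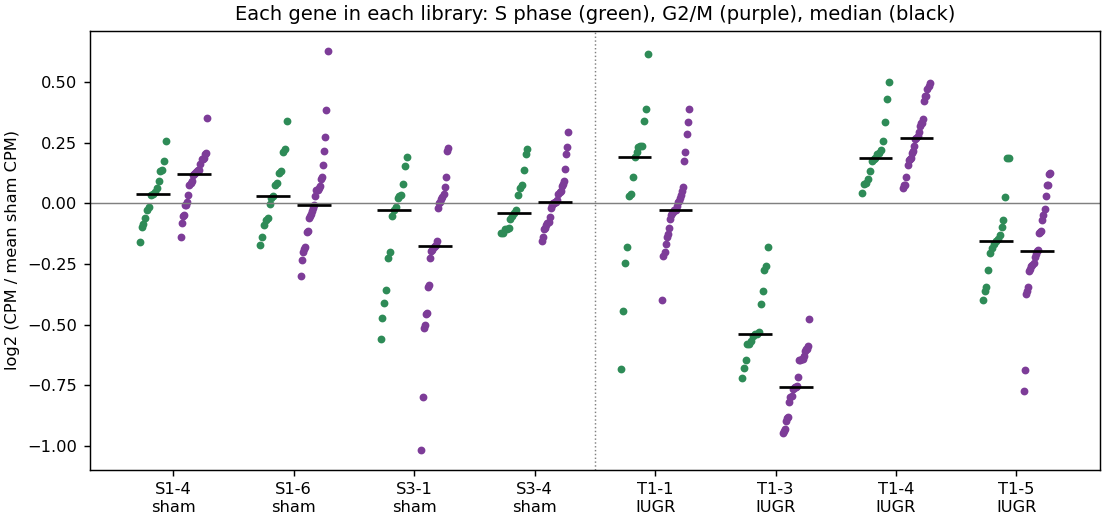
Level of each of the 40 genes in each of the 8 libraries, as log2 of its CPM over the mean sham CPM of that gene (vertical axis), with S phase genes in green, G2/M genes in purple and the median of each list as a black line. T1-3 lies far below the sham level and T1-4 above it.

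The mean log2 CPM of each list shows the same order. For S phase it was 6.84, 6.28, 6.98 and 6.63 in T1-1, T1-3, T1-4 and T1-5, and 6.81, 6.82, 6.65 and 6.77 in S1-4, S1-6, S3-1 and S3-4. For G2/M it was 7.47, 6.74, 7.75 and 7.29 in the IUGR samples and 7.57, 7.5, 7.27 and 7.49 in the sham samples. In both lists the IUGR samples reached beyond the sham samples on either side, and S3-1 was the lowest sham sample. From lowest to highest the IUGR samples covered a 1.63-fold range in S phase and a 2.02-fold range in G2/M, and the sham samples a 1.12-fold and a 1.23-fold range.

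**Figure D3:**
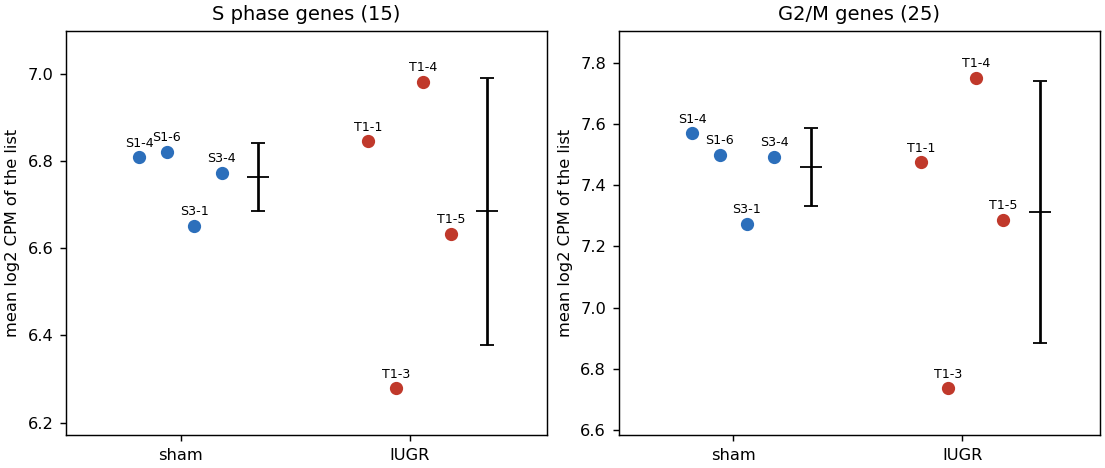
Mean log2 CPM (vertical axes) of the 15 S phase genes on the left and the 25 G2/M genes on the right, 1 point per library, blue for sham and red for IUGR, with the group mean ± SD as black bars (n = 4). The group means lie within the IUGR spread, and T1-3 is lowest and T1-4 highest in both panels.

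The balance of the phases was compared as the G2/M mean minus the S phase mean of each sample. It was 0.63 ± 0.13 in IUGR and 0.70 ± 0.06 in sham (mean ± SD, n = 4), a difference of −0.07 on the log2 scale that was smaller than the IUGR SD. Without T1-3 it was −0.01 (0.68 ± 0.07 in IUGR, n = 3) and without T1-4 −0.12, so its size depended on these libraries. Its lowest and highest values, 0.46 in T1-3 and 0.77 in T1-4, were both IUGR samples, so the ranges overlapped fully.

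Leaving out libraries turned the signs. Without T1-3, 34 of the 40 estimates were above 0, and the medians were 0.10 for S phase and 0.09 for G2/M. Without T1-4, 39 were below 0, with medians of −0.16 and −0.29. In each fit that left out 1 sample, 0 of the 40 genes were called and 0 had an unadjusted p under 0.05. When T1-1 and T1-4, the IUGR samples with the lowest choroid plexus marker sums, were both left out, all 40 estimates were below 0, with medians of −0.31 and −0.44. In that fit Mcm2, Mki67, Cdc20, Bub1b, Kif20a, Tpx2, Birc5 and Prc1 were lower at an unadjusted p under 0.05, which is 8 of 40, beside 5.62% of all tested genes in the same fit. None was called, and the smallest adjusted p by edgeR was 0.235. When T1-3 and T1-5 were left out instead, 36 estimates were above 0, with medians of 0.17 and 0.14, and the smallest adjusted p was 0.551. Against the S3 sham samples alone, 22 estimates were below 0 and 18 above, and against the S1 sham samples alone 37 were below 0. A prefix stands in the sample names and its meaning is not stated in the labels. All IUGR samples carry the prefix T1, so prefix and group cannot be told apart.

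**Figure D4:**
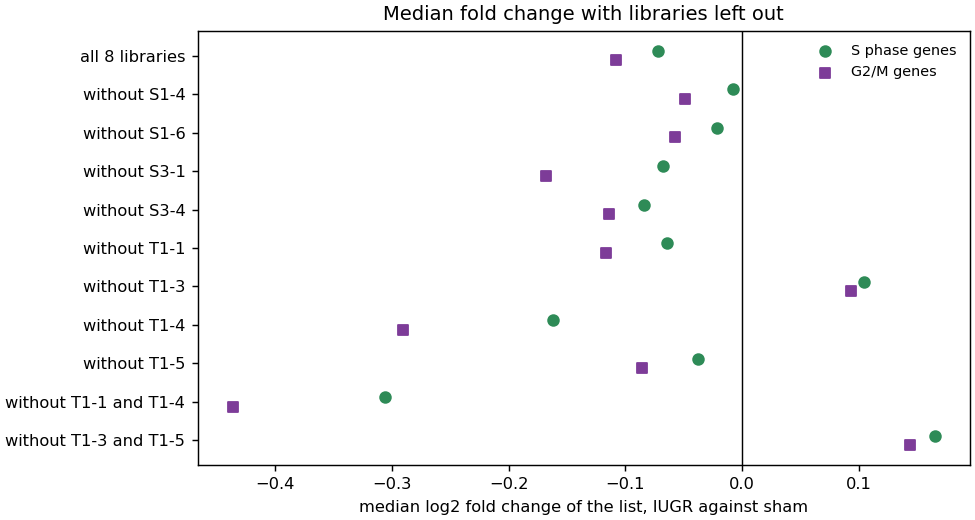
Median log2 fold change (horizontal axis, IUGR against sham) of the S phase genes (green circles) and the G2/M genes (purple squares) over all 8 libraries and with the named libraries left out. Both medians lie above 0 only in the 2 fits without T1-3, at 0.10 and 0.09 without it alone and at 0.17 and 0.14 without T1-3 and T1-5.

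Most of the 40 genes varied together with Mki67 from sample to sample. Over the 8 samples, Pearson's r with the log2 CPM of Mki67 had a median of 0.83 over the other 39 genes, with a range from 0.29 (Ccne2) to 0.97 (Ube2c). It was at least 0.7 for 28 of these 39 (71.8%), beside 5.14% of all tested genes. The other 11 included Gins1, Pcna, Ccnb1 and Ccnb2. The median was 0.77 for S phase and 0.86 for G2/M genes. The points share their libraries, and T1-3 and T1-4 lie at the ends, so these values describe the 8 libraries and carry no test. Without T1-3 the median r was 0.69 and 19 of 39 genes (48.7%) reached 0.7, beside 11.7% of all tested genes. Without T1-4 the median was 0.81 with 23 of 39 genes (59.0%), beside 6.32%. Without both, over 6 samples, the median was 0.66 with 18 of 39 genes (46.2%), beside 16.4%. The lowest r among the 39 genes was −0.72 without T1-3, 0.22 without T1-4 and −0.92 without both. Outside the lists examined, the 5 genes most like Mki67 were Ccdc163 (r = 0.98), Kifc5b (0.97), Akna (0.97), Jam2 (0.97) and Tox3 (0.96).

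Levels between genes were compared as CPM per kilobase of exon. In sham samples Top2a was highest at 201 CPM per kilobase, followed by Ccna2 at 104, Mki67 at 98.6, Pcna at 89.4 and Rrm2 at 77.7. The lowest were Cdt1 at 11, Ccne1 at 7.30, Cdc6 at 7.12 and Gins2 at 6.70 CPM per kilobase. In IUGR samples the level of Top2a was 190.5 and that of Gins2 6.10 CPM per kilobase. The strand setting of the authors' counting was not given in the sources used here, and 10 of the 40 genes overlap a counted protein-coding gene on the other strand (Mcm7, Gins2, Ccne2, Ccna2, Cdc20, Kif20a, Nusap1, Prc1, Ube2c and Cdc45), so their counts may include reads of that gene. Cdt1 and Foxm1 overlap one on the same strand, and Pcna has a counted processed pseudogene, Pcna-ps2.

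The wider cell cycle was read from lists of 144 further genes, of which 142 were tested and 2, Cdkn2a and Cdkn2b, were not matched in the table. None was called, beside 1.46% of all tested genes. At an unadjusted p under 0.05, 0 of the 142 were higher, beside 4.46% of all tested genes, and 1 was lower, beside 6.62%. That gene was Ccng1, a target of p53, at 99.6 ± 24.5 CPM in IUGR, against 141 ± 33.5 CPM in sham (log2 fold change -0.50, SE 0.21, 95% interval -0.96 to -0.04, adjusted p = 0.37 by edgeR). Of 40 further S phase genes, 25 had estimates below 0, beside 55.5% of all tested genes, and the median was −0.04. Tyms and Rpa1, which were among those with the smallest p values there, had log2 fold changes of -0.23 and -0.10 (SE 0.18 and 0.14). Of 60 further G2/M genes, 57 had estimates below 0, beside 55.5% of all tested genes, and the median was −0.13. The mean log2 CPM of the 60 was 6.43, 5.81, 6.71 and 6.31 in T1-1, T1-3, T1-4 and T1-5, against 6.29 to 6.55 in sham samples. T1-3 was thus again the lowest, and no difference between the groups can be read from these signs. Cenpk, a kinetochore gene, had -0.35 and Cks2, a partner of Cdk1, -0.43 (SE 0.21 and 0.29).

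Pttg1, or securin, the inhibitor of the enzyme that parts sister chromatids, had the largest of these differences. It was at 7.94, 9.10, 8.85 and 45.02 CPM in IUGR, against 42.8, 36.5, 44.6 and 14.97 CPM in sham samples. T1-1, T1-3 and T1-4 were below all sham samples, T1-5 was the highest of all 8, and S3-4 was well below the other sham samples. Its log2 fold change was -0.97 (SE 0.57, adjusted p = 0.69 by edgeR), and without T1-5 it was −2.01 (adjusted p = 0.0209 by edgeR). Its values thus did not follow those of the 25 G2/M genes, for which T1-4 was the highest sample in 16.

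In the G1 list of 11 genes the median was −0.03, and cyclin D1 (Ccnd1) had 0.49 (SE 0.24, adjusted p = 0.532 by edgeR) and Myc 0.70 (SE 0.38, adjusted p = 0.613 by edgeR). Of 5 tested kinase inhibitors, 3 had estimates below 0, beside 55.5% of all tested genes. Cdkn1c had 0.45, Cdkn1a -0.40 and Cdkn2c -0.25 (SE 0.26, 0.36 and 0.20). In the 18 genes of the Rb, E2F and DREAM list the median was −0.01, and E2f6, E2f7 and Lin9 had -0.15, -0.28 and -0.18 (SE 0.11, 0.28 and 0.19). In the 8 genes of cell cycle exit the median was −0.14, and Btg1, Gadd45g and Trp53inp1 had -0.30, -0.26 and -0.22 (SE 0.18, 0.19 and 0.22).

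Markers of the cells that divide and of those that do not were set beside these genes. The radial glia markers summed to between 3671 and 4524 CPM in IUGR and between 3876 and 4902 CPM in sham. Of the 15, 10 had estimates below 0, beside 55.5% of all tested genes. Vim and Nes, intermediate filament genes of radial glia, had log2 fold changes of -0.25 and -0.11 (SE 0.16 and 0.19). Of 9 intermediate progenitor markers 7 had estimates below 0, beside 55.5% of all tested genes. Their summed level was 583 to 889 CPM in IUGR, against 539 to 1085 CPM in sham. Of the 9, 1 was lower at an unadjusted p under 0.05, beside 6.62% of all tested genes, and 0 were called, beside 1.46%. The lower gene was Neurod1, named after its values were seen (log2 fold change -0.63, SE 0.28, adjusted p = 0.447 by edgeR). Eomes and Btg2 had log2 fold changes of -0.28 and 0.07 (SE 0.40 and 0.16). All 14 neuron markers had estimates above 0, with a median of 0.46. Their sum was between 5870 and 6428 CPM in IUGR and between 4277 and 5402 CPM in sham, 8 of 14 were higher at an unadjusted p under 0.05, beside 4.46% of all tested genes, and 0 were called, beside 1.46%. Tubb3 and Map2 had 0.20 and 0.27 (SE 0.18 and 0.11).

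In other cell types, the 12 microglia and macrophage markers summed to 344 CPM in T1-3, against 117 to 210 CPM in the other IUGR samples and 126 to 173 CPM in sham, and Mrc1 had a log2 fold change of 1.20 (SE 0.69). T1-3, the sample lowest in the cell cycle genes, was the highest of the 8 in the summed meningeal, microglia, vascular and erythroid markers. In the summed neuron markers it stood at 6182 CPM, below T1-5 and T1-4. In the mean log2 CPM of the same 14 markers T1-3 was the highest of the 8 at 7.76, beside 7.68 in T1-4 and 7.49 in T1-5. Its rank in neuron markers thus depended on the measure. All 12 meningeal markers had estimates above 0, and Zic1 was called higher in IUGR (log2 fold change 1.19, SE 0.24, 95% interval 0.66 to 1.72, adjusted p = 0.0403 by edgeR), while Col3a1, not called, had 1.63 (SE 0.85). Zic1 was at 504, 911, 465 and 470.1 CPM in IUGR, against 219, 318, 209 and 284 CPM in sham, with T1-3 the highest. It was above all sham samples also in T1-4, where the mean log2 CPM of the 12 meningeal markers was the lowest of the 8, at 2.47. The call of Zic1 therefore does not stand for the list as a whole. All 15 tested choroid plexus markers and all 12 tested cortical hem markers had estimates below 0, beside 55.5% of all tested genes, and 5 and 7 were called, beside 1.46%. Igfbp2 and Clic6 of the choroid plexus list had log2 fold changes of -1.23 and -3.03 (SE 0.22 and 0.89), and Wnt5a and Rspo3 of the cortical hem list -0.40 and -1.34 (SE 0.24 and 0.28). Of the vascular markers 11 of 12 had estimates above 0, with 479 to 696 CPM in IUGR, against 397 to 537 CPM in sham, and all 9 erythroid markers did, with 659.8 to 2145 CPM and 1068 to 1633 CPM. Rgs5 and Kdr of the vascular list had 0.40 and -0.26 (SE 0.17 and 0.21), and the globins Hbb-bs and Hbb-y 0.19 and 0.54 (SE 0.36 and 0.26). The part of these cell types in the levels of the 40 genes was not tested.

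The RefSeq sequence before the start sites of the 40 genes was searched for the motifs of their usual regulators, as a description of shared sequence. A window of 300 bases (250 before and 50 after the start, GRCm38.p6) was at hand for 31 of the 40 genes, 11 in S phase and 20 in G2/M. The motifs were E2F (TTCCCGC or TTGGCGC), the cell cycle homology region CHR (TTTGAA or TTTAAA) and the CCAAT box (CCAAT), each on both strands. An E2F match stood in 7 of 11 S phase windows (63.6%) and 3 of 20 G2/M windows (15%), beside 14% of 10306 tested genes with a window. A CHR match stood in 36.4% of S phase and 90% of G2/M windows, beside 22.1% of tested genes, and a CCAAT match in 72.7% and 90%, beside 42.9%. Both CHR and CCAAT matches were found in 3 of 11 S phase windows (27.3%) and 17 of 20 G2/M windows (85.0%), beside 10.6%. Over all 32851 windows of the same length the shares were 6.8% for E2F, 27.6% for CHR, 37.4% for CCAAT and 10.7% for both CHR and CCAAT. Of 17 E2F matches in the windows of the 40 genes, 2 shared bases with a CCAAT match. A match is a run of letters, not a bound site.

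**Figure D5:**
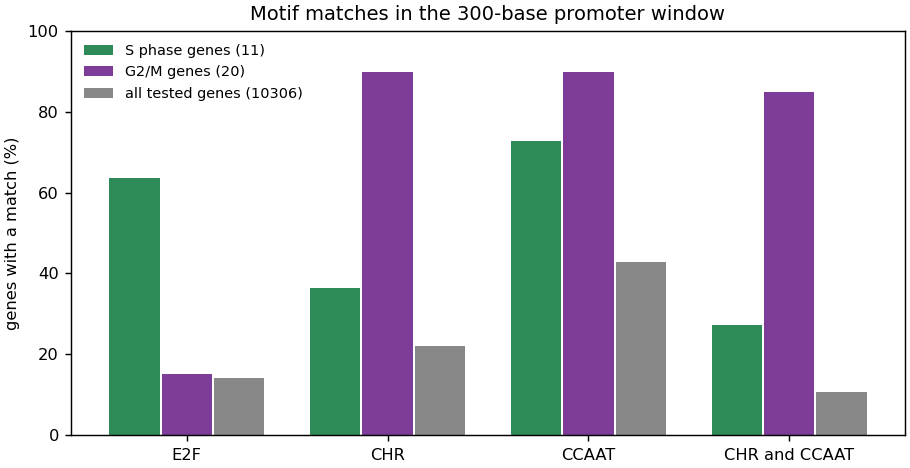
Share of genes (vertical axis, percent) whose 300-base promoter window holds a match to E2F, CHR, CCAAT, or both CHR and CCAAT, for 11 S phase genes (green), 20 G2/M genes (purple) and 10306 tested genes (grey). The E2F bar is highest for S phase genes at 63.6% and the CHR bar for G2/M genes at 90%.

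Stretches that end at the base before the start site are shown for the G2/M genes whose levels carry the description above or whose motifs stand close together, and for S phase genes with E2F matches. They are written 5′ to 3′ on the strand of the gene, with every match to the motifs in capitals (TTCAAA and ATTGG are CHR and CCAAT on the other strand). They lie at chr7:135716380-135716569, minus strand (Mki67), chr11:99024190-99024289, minus strand (Top2a), chr7:122159345-122159434, plus strand (Plk1), chr19:37376322-37376381, plus strand (Kif11), chr1:128359706-128359825, minus strand (Mcm6) and chr7:102441595-102441694, plus strand (Rrm1), all in GRCm38.p6.
Mki67: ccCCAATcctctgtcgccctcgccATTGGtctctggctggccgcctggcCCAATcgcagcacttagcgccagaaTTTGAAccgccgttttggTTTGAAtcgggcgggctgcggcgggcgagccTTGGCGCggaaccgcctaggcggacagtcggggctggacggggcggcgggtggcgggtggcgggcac
Top2a: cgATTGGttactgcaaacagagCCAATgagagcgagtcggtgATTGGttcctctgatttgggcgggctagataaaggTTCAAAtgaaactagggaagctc
Plk1: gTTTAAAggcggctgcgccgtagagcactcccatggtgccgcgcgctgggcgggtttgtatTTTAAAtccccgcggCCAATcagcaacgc
Kif11: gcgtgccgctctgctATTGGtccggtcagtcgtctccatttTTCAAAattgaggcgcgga
Mcm6: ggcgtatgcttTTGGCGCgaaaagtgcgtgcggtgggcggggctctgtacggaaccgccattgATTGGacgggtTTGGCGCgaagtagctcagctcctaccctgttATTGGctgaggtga
Rrm1: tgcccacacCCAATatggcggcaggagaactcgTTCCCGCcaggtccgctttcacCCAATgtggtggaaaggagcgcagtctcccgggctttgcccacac
Mki67 holds an E2F match as well as CHR and CCAAT matches, whereas Top2a, Plk1 and Kif11 show CHR and CCAAT but no E2F letters in these stretches. Mcm6 and Rrm1 show E2F and CCAAT matches and no CHR. Genes of both kinds had their lowest level in T1-3, except Plk1, whose lowest sample was S3-1.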

How the data were processed

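Total RNA of E15.5 hippocampi (4 IUGR, 4 sham) was depleted of ribosomal RNA and sequenced as stranded single reads, all in the same lane per the labels. The authors aligned reads to GRCm38 (mm10), and the submitters' processing notes name Novoalign 2.8. The counting program, annotation release and strand setting were not given in the sources used here. The values deposited by the authors are raw counts per gene, without normalization.

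Of 16397 identifiers, 16124 matched GENCODE M21. Protein-coding genes whose mean count lay from 10 to below 50000 (13707 genes) were compared over all 8 samples in R 4.3.3 with edgeR 4.0.16 (TMM, quasi-likelihood test). The adjustment followed Benjamini and Hochberg over the 13707. A prior count of 2 was used for log2 CPM. The alternatives were DESeq2 1.42.0, limma-voom (limma 3.58.1), other normalizations and filters, and libraries left out. The code was tested on simulated data. Total counts were 11212632 to 16672463 per sample. Within each group all 12 pairs of samples differed by more than sampling noise (chi-square per degree of freedom 29.5 to 78.8). No pair thus looked like 1 library read again, and each sample was counted once. These values cannot show whether samples came from separate litters. Replicate numbers were in accession order and pair no samples.

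All 40 cell cycle genes are named, and in the further lists the genes called or, where fewer than 3 passed, those with the smallest p up to 3. In marker lists the most abundant tested genes are named, and outside the lists the 5 genes most like Mki67. Some genes that this rule names are not reported here. The 40 genes and all lists were chosen with earlier results of these data known. Promoter sequences are from RefSeq.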

Additional observations from a re-analysis of the deposited data

How the results depend on the processing

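The number of the 40 genes called was 0 under all 19 alternatives, and the number with an adjusted p of at most 0.05 was 0 as well. The number lower at an unadjusted p under 0.05 was 0 except 8 of 40 when T1-1 and T1-4 were left out (beside 5.62% of all tested genes in that fit), and the number higher was 0 throughout. The median log2 fold change ran from −0.16 to 0.10 (S phase) and from −0.29 to 0.09 (G2/M) with each sample left out in turn. It was −0.31 and −0.44 without T1-1 and T1-4, and for S phase 0.17 without T1-3 and T1-5. Signs of 29 of the 40 estimates turned without T1-3, of 31 without T1-3 and T1-5, and of 1 to 3 under other normalizations, tests and filters. The median SD of log2 CPM of the 40 genes, an alternative chosen after seeing the data, was 0.27 to 0.50 within IUGR and 0.12 to 0.19 within sham with each sample left out. With each sample left out, also chosen after seeing the data, the G2/M minus S phase balance differed between groups by −0.12 to −0.01 and the median r with Mki67 was 0.69 to 0.86. Further cell cycle genes called were 0, or 1 (Pttg1) without T1-5 and 1 (Pttg1) without T1-3 and T1-5, so 0 to 1 with each sample left out. Calls over all genes were 200 with edgeR, 425 with DESeq2, 328 with limma-voom, 41 to 298 with each sample left out, 531 without T1-3 and T1-5, 2 against the S3 sham samples alone and 0 against the S1 sham samples alone. The cause of these moves was not tested. No paired analysis was possible because the labels give no replicate numbers that pair samples.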
